A study of Mus musculus with 12 samples.

Results

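Chemokines, cytokines and their receptors were followed in hearts of WT mice and of mice homozygous for a Bcl-xL S14A knock-in (KI), 9 h after transverse aortic constriction (TAC) or sham surgery. The members were chosen by name: genes whose symbol begins with Ccl, Cxcl, Ccr, Cxcr, Cx3c, Il or Csf and a number, or with Tnfrsf or Tnfsf, except Il6, Il6ra, Il6st and Csf1r. Of the 13552 genes analysed, 71 were members: 15 chemokine ligands, 7 chemokine receptors, 6 interleukin ligands, 19 interleukin receptors, 4 antagonists, decoys and binding proteins, 5 colony-stimulating factors and their receptors, 5 TNF superfamily ligands and 10 members of the TNF receptor superfamily. Cxcl2, Cxcr2, Il1r2, Il18, Il11 and Tnfrsf11b were not analysed here.

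TAC narrows the aortic arch with a ligature, so that the heart must work against a higher load, and in sham surgery no constriction is made. The sham and TAC groups of each genotype held 3 hearts, 12 in all, from adult male mice of the strain C57BL/6. In the knock-in, serine at codon 14 of Bcl-xL, an anti-apoptotic protein of the Bcl-2 family, is replaced by alanine (S14A), so that this residue cannot be phosphorylated. The allele was introduced through the germ line and is present in every cell type, in the leukocytes as well as in the myocytes. Per the study's methods the WT mice were bought and the knock-in line was made and bred by the authors, so that genotype and origin of the mice cannot be told apart. The substitution cannot be read from values per gene. RNA came from heart tissue of mixed cell types: fewer cells of a type and less RNA per cell cannot be told apart in any value given here. The deposited unit is RPKM (reads on a gene, divided by its exon length and by the depth of the library), which can be compared between genes, at a depth of 23650048 to 32443234 reads on genes per heart. The markers of cardiomyocytes were abundant in every heart, with the 8 genes of that list summing to 15144 RPKM or more. The heart of WT TAC mouse 10 stood apart in its fibroblast markers, which summed to 814 RPKM against 133 to 350.3 RPKM in the other 11 hearts. 

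Chemokines are small secreted proteins that direct leukocytes along a gradient through receptors coupled to G proteins. Cytokines of the interleukin, colony-stimulating factor and TNF families act through receptors that signal to NF-κB, the MAP kinases or JAK and STAT proteins. In the pressure-loaded heart they are known for early release by resident cells and for the recruitment of neutrophils and monocytes. Several of their promoters hold sites for NF-κB, whose motif is shown in 4 members.

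The promoter sequences are the 250 bases before the RefSeq start site (build GRCm38.p6), written 5′ to 3′ on the strand of the gene, with matches to the κB type motif in capitals (GGG, any 3 bases, then TTCC, on either strand). Csf1, Il1rn, Ccl9 and Cxcl1 are shown as the secreted members that rose after TAC in 1 or both genotypes and hold the motif. Il1rn (chr2:24345121-24345370, plus strand) and Csf1 (chr3:107760470-107760719, minus strand) hold 1 match each, at 51 and 154 bases before the start.
Il1rn: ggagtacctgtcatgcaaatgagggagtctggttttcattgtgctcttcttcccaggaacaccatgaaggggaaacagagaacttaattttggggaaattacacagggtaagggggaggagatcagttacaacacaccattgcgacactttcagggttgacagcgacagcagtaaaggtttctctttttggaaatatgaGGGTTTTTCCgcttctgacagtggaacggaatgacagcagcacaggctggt
Csf1: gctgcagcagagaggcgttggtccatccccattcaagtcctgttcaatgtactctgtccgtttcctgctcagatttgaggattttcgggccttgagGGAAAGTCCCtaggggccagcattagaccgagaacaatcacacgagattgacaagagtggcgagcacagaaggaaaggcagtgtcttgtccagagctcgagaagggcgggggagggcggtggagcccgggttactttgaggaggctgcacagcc
Ccl9 (chr11:83578637-83578886, minus strand) holds 1 match, 35 bases before the start, and Cxcl1 (chr5:90890995-90891244, plus strand) holds 3, at 89, 71 and 70 bases, of which the last 2 overlap.
Ccl9: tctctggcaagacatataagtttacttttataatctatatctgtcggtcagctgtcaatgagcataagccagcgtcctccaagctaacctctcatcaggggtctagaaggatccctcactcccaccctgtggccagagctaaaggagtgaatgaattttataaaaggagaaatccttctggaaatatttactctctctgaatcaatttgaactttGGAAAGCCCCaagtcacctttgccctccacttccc
Cxcl1: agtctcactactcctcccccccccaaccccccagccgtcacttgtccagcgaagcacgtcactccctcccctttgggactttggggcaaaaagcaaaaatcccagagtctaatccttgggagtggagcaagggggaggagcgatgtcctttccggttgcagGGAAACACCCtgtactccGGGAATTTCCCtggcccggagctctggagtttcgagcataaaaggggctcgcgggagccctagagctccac
RefSeq windows were matched to 53 of the 71 members. The motif stood in 10 of these 53 (18.9%): Ccl9, Csf1, Csf3r, Cxcl1, Il16, Il17rc, Il1r1, Il1rn, Il2ra and Tnfrsf25. It stood in 5.31% of the 27025 genes with a window. Of 19 members that rose with TAC in both genotypes, 14 had a window and 5 of those held the motif. The AP-1 letters TGANTCA, searched likewise on both strands, were found in 6 of the 53 members (11.3%) and in 7.82% of all genes. Of 4 further motifs searched in the same way, the CRE letters TGACGTCA stood in 1.89% of the members and 1.77% of all genes, the STAT letters TTCNNNGAA in 11.3% and 8.13%, the interferon element (TTTC, any 2 bases, then TTTC) in 7.55% and 3.46%, and the TATA letters TATAAA in 18.9% and 14.3%. The motifs were chosen after values had been seen, and a match is a stretch of letters, not a shown site of binding.

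A large share of the family was higher 9 h after TAC. In WT hearts 30 of the 71 members passed the test (limma, Benjamini-Hochberg adjusted p below 0.05 over all genes), 26 of them higher and 4 lower after TAC. Among all genes 11.1% passed in WT, 6.86% higher and 4.24% lower, against 42.3% of the members. In KI hearts 32 members passed, 22 higher and 10 lower, which is 45.1% of the members against 21.6% of all genes (7.8% higher and 13.8% lower). The members that fell, 4 of 71 in WT and 10 of 71 in KI, are a share near that of all genes that fell, so that nothing about the family is read from the falls. Values of the 3 TAC and the 3 sham hearts did not overlap for 38 members in WT (53.5%, against 33.9% of all genes) and for 45 in KI (63.4%, against 38.9%). Log2 differences are those of the mean log2(RPKM + 1), given with their SE. This scale compresses the change of a gene near or below 1 RPKM, and 28 members had a mean below that level.

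Of the 26 members that rose in WT and the 22 that rose in KI, 19 were shared, 19 of 26 and 19 of 22. They were the CC chemokines Ccl2, Ccl6, Ccl7, Ccl9 and Ccl12, the CXC chemokine Cxcl5, the receptors Ccr1 and Cxcr6, Csf1, Csf2rb, Csf2rb2, Csf3r, Il1b, Il1r1, Il1rn, Il4ra, Il17ra, Tnfrsf1a and Tnfrsf12a. A further 7 rose past the threshold in WT and not in KI (among them Ccr2, Cx3cr1, Csf2ra, Il13ra1, Tnfrsf11a and Tnfrsf1b), and 3 in KI and not in WT (Cxcl1, Il20rb and Tnfrsf10b). Ccr10, Il2ra and Tnfrsf25 fell in both genotypes, Il15 passed as lower in WT alone, and 7 passed as lower in KI alone (Ccl27a, Il10rb, Il11ra1, Il17d, Tnfrsf19, Tnfrsf21 and Tnfsf10). Passing in 1 genotype and not in the other is not a difference between them, and no member passed the test of that difference, the interaction of genotype and surgery.

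**Figure D1:**
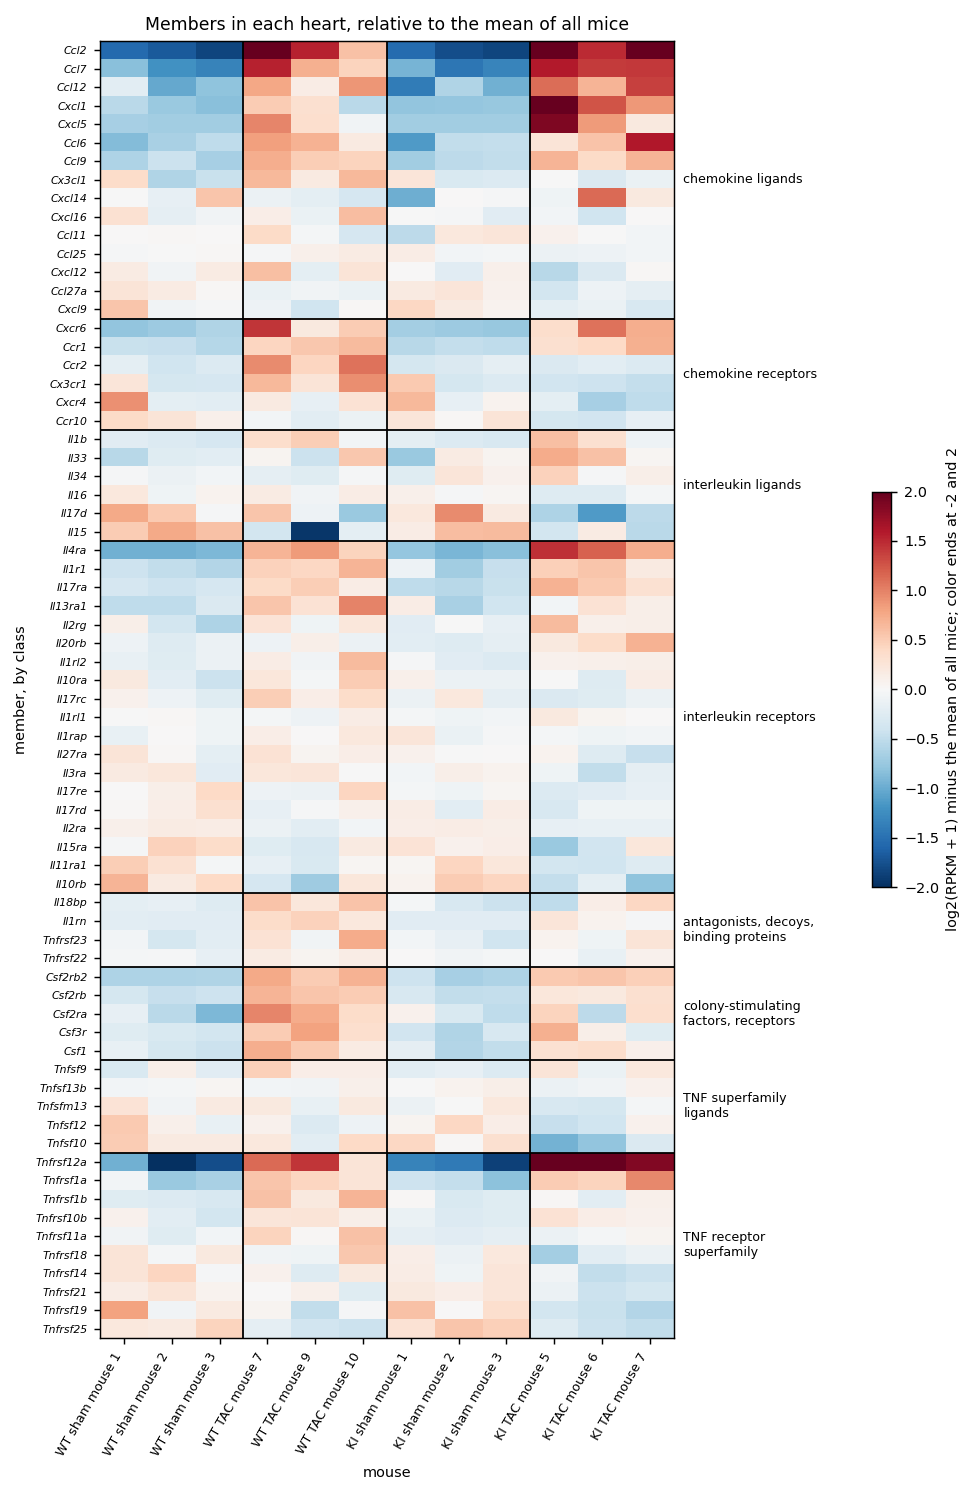
Heat map of 70 of the 71 members (rows, grouped by class) in the 12 hearts (columns, in groups of 3). Color gives log2(RPKM + 1) minus the member's mean over all mice. Ccl2 and Tnfrsf12a turn from blue in the 6 sham hearts to red in the 6 TAC hearts, while Ccr2 is at its deepest red in the 3 WT TAC hearts.

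**Figure D2:**
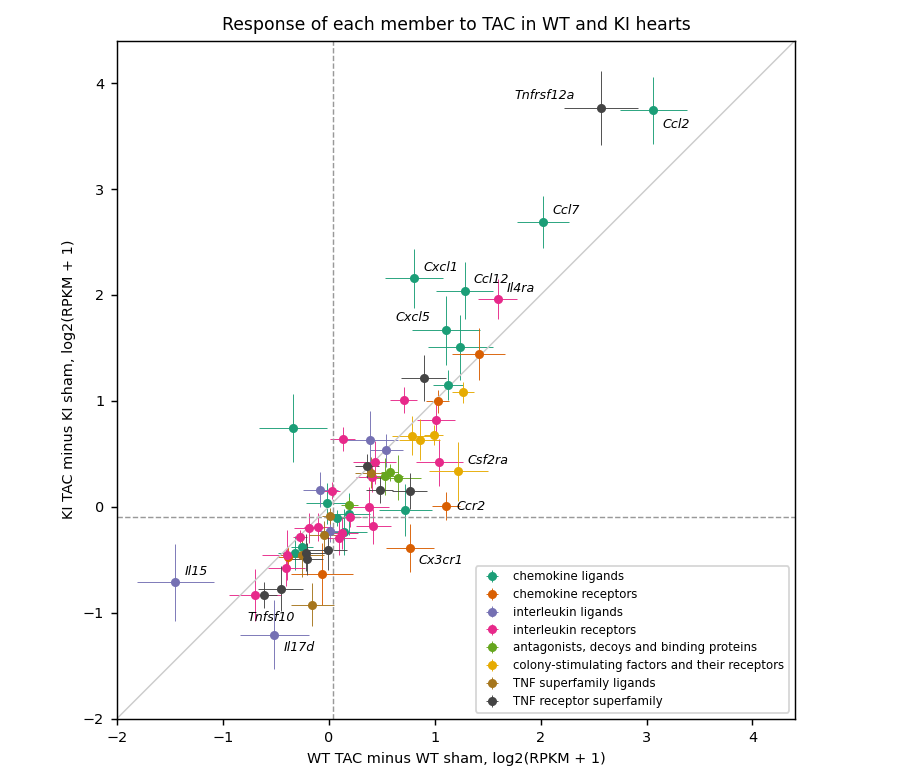
Log2 difference of TAC from sham in WT hearts (horizontal axis) against KI hearts (vertical axis) for 70 of the 71 members, colored by class, with SE bars. Dashed lines mark the median of all genes (0.04 in WT and -0.10 in KI), the diagonal marks equal differences, and Cxcl1 lies above it while Ccr2 and Cx3cr1 lie below.

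The scale between libraries matters for the direction of small differences. The median over all genes of the log2 difference was 0.04 in WT, -0.10 in KI and -0.12 between KI TAC and WT TAC hearts. The members' medians were 0.38, 0.12 and -0.17. Of all genes that passed, 61.8% were higher in WT, 36.1% in KI and 24.5% in KI TAC against WT TAC, and with median-ratio scaling these shares were 52.7%, 53.1% and 54.7%. With that scaling 25 members were higher and 4 lower in WT, 22 higher and 7 lower in KI, and 3 higher and 4 lower in KI TAC against WT TAC. Of all 13552 genes 866 were then higher and 776 lower in WT, 1689 and 1491 in KI, and 719 and 596 between the TAC groups. No member that passed turned its sign under any alternative. Without WT TAC mouse 10, the heart rich in fibroblast markers, 31 members passed in WT, 33 in KI and 6 between the TAC groups. Of all genes 1718, 3453 and 813 passed in these fits, against 1505, 2926 and 1304 with all mice.

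Of the 15 chemokine ligands, 6 rose in WT, and 7 rose and 1 fell in KI. Ccl2, the main attractant of monocytes that carry Ccr2, was expressed at 0.738, 0.595 and 0.431 RPKM in the WT sham hearts and at 19.4, 13.9 and 6.66 RPKM in the WT TAC hearts (3.06 ± 0.32, adjusted p = 0.000145). In KI hearts it went from 0.755, 0.495 and 0.433 RPKM to 28.8, 13.3 and 20.2 RPKM (3.74 ± 0.32, adjusted p = 2.09e-05). All 6 TAC hearts lay above all 6 sham hearts, by a ratio of means of 22.6 in WT and 37.0 in KI. Ccl7, a second ligand of Ccr2, was at 0.777, 0.369 and 0.256 RPKM in WT sham and 8.21, 4.17 and 3.30 RPKM in WT TAC hearts (2.02 ± 0.25, adjusted p = 0.000391). Its KI values were 0.664, 0.166 and 0.269 RPKM in sham and 8.49, 7.33 and 7.40 RPKM in TAC hearts (2.69 ± 0.25, adjusted p = 2.99e-05). As with Ccl2, the groups were fully apart in both genotypes. Ccl12, a mouse chemokine that also binds Ccr2, stood at 3.84, 2.14 and 4.21 RPKM in WT TAC and 5.16, 3.53 and 6.32 RPKM in KI TAC hearts. Its sham values were 1.45, 0.394 and 0.610 RPKM in WT and 0.0762, 0.864 and 0.459 RPKM in KI, the lowest of which was 1 read (1.28 ± 0.27, adjusted p = 0.00995 in WT, and 2.04 ± 0.27, adjusted p = 0.000323 in KI). These 3 genes and Ccl11 lie within chr11:82035571-82103400 (GRCm38). Their neighbor Ccl11, an attractant of eosinophils, was at 0.189 to 1.22 RPKM over all 12 hearts and passed in neither genotype (adjusted p = 0.971 in WT and 0.922 in KI).

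Ccl6 and Ccl9, mouse chemokines that bind Ccr1, lie further along the chromosome, Ccl9 at chr11:83572919-83578636 and Ccl6 at chr11:83587882-83593087. Ccl6 had a mean of 4.53 ± 0.693 RPKM (SD, n = 3) in WT sham, 12.2 ± 2.93 in WT TAC, 4.51 ± 1.30 in KI sham and 15.7 ± 8.62 in KI TAC hearts. It rose in both genotypes (1.24 ± 0.31, adjusted p = 0.0213 in WT, and 1.51 ± 0.31, adjusted p = 0.00444 in KI). Ccl9, whose promoter is printed above, was at 0.981, 1.26 and 0.914 RPKM in WT sham and 4.01, 3.28 and 3.14 RPKM in WT TAC hearts (1.12 ± 0.14, adjusted p = 0.000483). In KI hearts the values were 0.873, 1.11 and 1.16 RPKM and 3.84, 2.98 and 3.85 RPKM (1.15 ± 0.14, adjusted p = 0.000244). The mean of Ccl9 in the TAC hearts was nearly the same in the 2 genotypes, 3.48 and 3.56 RPKM. The WT call of Ccl6 was lost when WT sham mouse 1, WT sham mouse 2, WT TAC mouse 7 or WT TAC mouse 9 was left out (highest adjusted p over the alternatives, 0.0896). Ccl27a, a ligand of Ccr10, passed as lower in KI (-0.38 ± 0.10, adjusted p = 0.0198) but not with quantile normalization, nor when KI sham mouse 2 or KI TAC mouse 5 was left out (highest adjusted p 0.0781). Its exons overlap those of Il11ra1 on the other strand by 8 bases.

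Cxcl1 and Cxcl5, which attract neutrophils through Cxcr2, were low in sham hearts. Cxcl5 was at 0.0668, 0.0454 and 0.0439 RPKM in WT sham and 0.0439, 0.0534 and 0.0496 RPKM in KI sham hearts, the lowest value being 2 reads. After TAC it reached 2.36, 1.14 and 0.617 RPKM in WT (1.11 ± 0.32, adjusted p = 0.0426) and 5.17, 2.05 and 0.953 RPKM in KI hearts (1.66 ± 0.32, adjusted p = 0.00334). The groups did not overlap in either genotype, though the TAC hearts spread widely. Cxcl1 was at 0.398, 0.203 and 0.131 RPKM in WT sham and 1.89, 1.53 and 0.388 RPKM in WT TAC hearts, where mouse 10 lay within the sham range and the test was not passed (0.80 ± 0.28, adjusted p = 0.0793). In KI hearts it went from 0.175, 0.177 and 0.197 RPKM to 7.20, 3.86 and 2.67 RPKM (2.16 ± 0.28, adjusted p = 0.000277). Each KI TAC heart lay above each WT TAC heart, and the comparison of the 2 passed the test (1.28 ± 0.28, adjusted p = 0.0167). That call was lost in a fit of the 2 groups alone and without KI TAC mouse 6 (highest adjusted p 0.0885). For Cxcl5, KI TAC and WT TAC overlapped and did not pass (adjusted p = 0.264), and its WT call was lost with median-ratio scaling, with quantile normalization, without the variance trend and without any of 9 mice (highest adjusted p 0.174); the 9 were the 3 WT sham and 3 KI sham mice, WT TAC mice 7 and 9 and KI TAC mouse 6.

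The most abundant chemokine ligand was Cxcl12, the ligand of Cxcr4 that holds leukocytes in tissue, at 40.3, 34.3 and 40.5 RPKM in WT sham, 55.5, 31.4 and 43.3 in WT TAC, 36.5, 30.6 and 39.0 in KI sham and 24.1, 29.4 and 36.7 in KI TAC hearts. All 4 groups overlapped, and neither response passed (adjusted p = 0.714 in WT and 0.459 in KI). Cxcl14 ranged from 8.49 to 39.7 RPKM over the 12 hearts without a call in the 4 comparisons of groups. Cx3cl1, a membrane-bound chemokine of endothelium, was at 5.24, 2.16 and 2.53 RPKM in WT sham, 6.53, 4.49 and 6.57 in WT TAC, 4.68, 2.89 and 2.98 in KI sham and 3.78, 2.93 and 3.39 in KI TAC hearts. Its 3 KI TAC hearts lay below the 3 WT TAC hearts, and the test did not pass (-0.64 ± 0.25, adjusted p = 0.109). Cxcl16, the ligand of Cxcr6, had group means between 1.75 and 2.57 RPKM, and Cxcl9 and Ccl25 were below 1.2 RPKM in every heart. None of these 3 passed in any comparison.

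**Figure D3:**
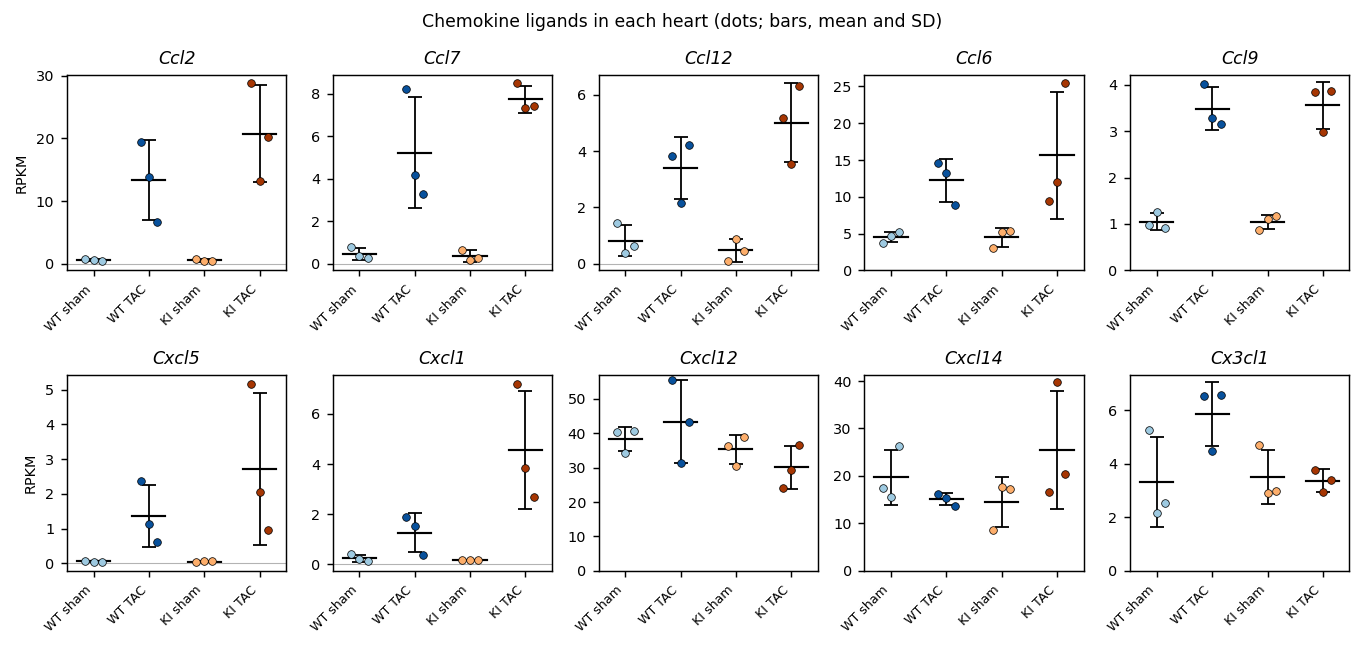
RPKM of 10 chemokine ligands in each heart (dots, 3 per group), with the mean and SD of each group as bars. Ccl2, Ccl7, Ccl12, Ccl6, Ccl9 and Cxcl5 are higher in all TAC than in all sham hearts of the same genotype, Cxcl1 is highest in the 3 KI TAC hearts, and Cxcl12 overlaps between all groups.

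Of the 7 chemokine receptors, 5 rose and 1 fell in WT, and 2 rose and 1 fell in KI. Ccr1, which binds Ccl6, Ccl7 and Ccl9 and is carried by neutrophils and monocytes, was at 0.209, 0.194 and 0.101 RPKM in WT sham and 1.21, 1.40 and 1.54 RPKM in WT TAC hearts (1.03 ± 0.11, adjusted p = 0.000158). It was at 0.116, 0.175 and 0.152 RPKM in KI sham and 1.05, 1.16 and 1.70 RPKM in KI TAC hearts (0.99 ± 0.11, adjusted p = 0.000109). The 2 TAC groups overlapped, with means of 1.38 and 1.30 RPKM. Cxcr6, a receptor of lymphocytes and other leukocytes, went from 0.0483, 0.0876 and 0.191 RPKM to 3.85, 1.07 and 1.57 RPKM in WT (1.41 ± 0.25, adjusted p = 0.00375) and from 0.127, 0.0858 and 0.0638 RPKM to 1.30, 2.81 and 1.99 RPKM in KI hearts (1.44 ± 0.25, adjusted p = 0.00163). The calls of both receptors held under every alternative in both genotypes.

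Ccr2, the receptor of Ccl2, Ccl7 and Ccl12 on inflammatory monocytes, passed in WT and not in KI. It was at 0.221, 0.0688 and 0.164 RPKM in WT sham and 1.70, 0.879 and 1.98 RPKM in WT TAC hearts, a ratio of means of 10.0 (1.10 ± 0.13, adjusted p = 0.000389). In KI hearts it was at 0.103, 0.152 and 0.242 RPKM in sham and 0.146, 0.205 and 0.155 RPKM in TAC hearts (0.01 ± 0.13, adjusted p = 0.981). Each of the 3 WT TAC hearts lay above the other 9. Cx3cr1, the receptor of Cx3cl1 on resident macrophages and patrolling monocytes, was at 0.767, 0.169 and 0.182 RPKM in WT sham and 1.35, 0.787 and 1.86 RPKM in WT TAC hearts (0.77 ± 0.22, adjusted p = 0.0441). It was at 1.14, 0.176 and 0.246 RPKM in KI sham and 0.154, 0.119 and 0.0774 RPKM in KI TAC hearts (-0.39 ± 0.22, adjusted p = 0.229). The KI TAC hearts were the lowest of all 12 for this gene, and mouse 1 was the highest of both sham groups. That ranking rests on few reads, 21, 17 and 11 in the KI TAC hearts and 18 in WT sham mouse 2.

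Compared with WT TAC hearts, KI TAC hearts were lower in Ccr2 (-1.08 ± 0.13, adjusted p = 0.00293) and Cx3cr1 (-1.04 ± 0.22, adjusted p = 0.0172), with no overlap in either. These comparisons share the WT TAC hearts with the WT response. The call of Ccr2 held under all 18 alternatives that test it, since the filter at 1 RPKM removes the gene (highest adjusted p 0.0475). That of Cx3cr1 was lost without WT TAC mouse 7 or KI TAC mouse 6 (highest adjusted p 0.0735). In WT, the response of Cx3cr1 was lost with a pseudocount of 0.1, in a fit of 2 groups, without the variance trend and without any of 8 mice (highest adjusted p 0.144), namely WT sham mice 2 and 3, WT TAC mice 7 and 10, KI sham mouse 3 and the 3 KI TAC mice. Ccr1, Cxcr6 and Ccr2 lie within chr9:123806475-124113557, in the order Cxcr6, Ccr1, Ccr2.

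The markers of monocytes and macrophages, cells that carry these receptors, did not all go one way. Of the 15 analysed of 17, Chil3, Cd68, Fcgr1, Lyz2 and Adgre1 rose in WT, Lyve1 rose and Csf1r and Timd4 fell in KI, and Chil3, Adgre1, Fcgr1, Csf1r and Timd4 were lower in the KI TAC than in the WT TAC hearts. In that last comparison 6 of the 15 had a log2 difference above 0, none of which passed, such as Lyve1 (0.73) and Cd163 (0.74). With median-ratio scaling 5 rose in WT, 4 rose and 1 fell in KI, and 5 were lower in the KI TAC than in the WT TAC hearts. Summed over the list, they reached 149 to 199 RPKM in WT sham, 226 to 338 in WT TAC, 155 to 181 in KI sham and 187 to 236 in KI TAC hearts. Every TAC sum thus lay above every sham sum of the same genotype, also in KI hearts, where Ccr2 and Cx3cr1 did not pass. Most of the sum was Lyz2, C1qa, C1qb and C1qc, none of which passed in KI, and Fcgr1 had means of 0.617 RPKM in KI sham and 0.651 RPKM in KI TAC hearts. Within WT TAC the sum, Ccr2 and Cx3cr1 had the same order, lowest in mouse 9, then mouse 7, and highest in mouse 10. Within KI TAC, where both receptors were low, mouse 7 had the highest sum and the lowest Cx3cr1, and mouse 6 the lowest sum and the highest Ccr2. The part of these cells in the result was not tested. Of 14 neutrophil markers 5 were analysed. Lcn2, S100a9 and Mmp9 rose in WT and all 5 in KI, and none passed between KI TAC and WT TAC. Their sum was 1.12 to 1.71 RPKM in WT sham, 10.7 to 30.6 in WT TAC, 0.770 to 1.12 in KI sham and 30.9 to 66.4 in KI TAC hearts. It lay higher in every KI TAC than in every WT TAC heart, as Cxcl1 did. Within KI TAC the order was the reverse, since mouse 7 had the highest sum and the lowest Cxcl1 and mouse 5 the lowest sum and the highest Cxcl1. On average Lcn2, whose 2 TAC groups overlapped, made up most of the sum in TAC hearts, and the part of these cells in the result for Cxcl1 was not tested. Ly6g, Mpo, Elane and 6 further neutrophil markers, and the markers of T cells, NK cells and adipocytes, were not analysed here.

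Cxcr4, the receptor of Cxcl12, was at 7.52, 2.97 and 2.92 RPKM in WT sham, 4.13, 3.04 and 4.55 in WT TAC, 6.09, 3.02 and 3.73 in KI sham and 2.96, 1.85 and 2.17 in KI TAC hearts. The highest value of each sham group was again that of mouse 1, and no comparison passed (adjusted p = 0.909 in WT and 0.134 in KI). Ccr10, the receptor of Ccl27a, was lower after TAC in both genotypes, at 1.03, 0.857 and 0.664 RPKM in WT sham and 0.496, 0.333 and 0.421 RPKM in WT TAC hearts (-0.38 ± 0.10, adjusted p = 0.0315). In KI it fell from 0.830, 0.576 and 0.857 RPKM to 0.210, 0.183 and 0.386 RPKM (-0.48 ± 0.10, adjusted p = 0.00624). The WT call of Ccr10 was lost with a pseudocount of 0.1, in a fit of 2 groups, without the variance trend, and without WT sham mouse 1, WT sham mouse 2, WT TAC mouse 7 or WT TAC mouse 9 (highest adjusted p 0.114).

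**Figure D4:**
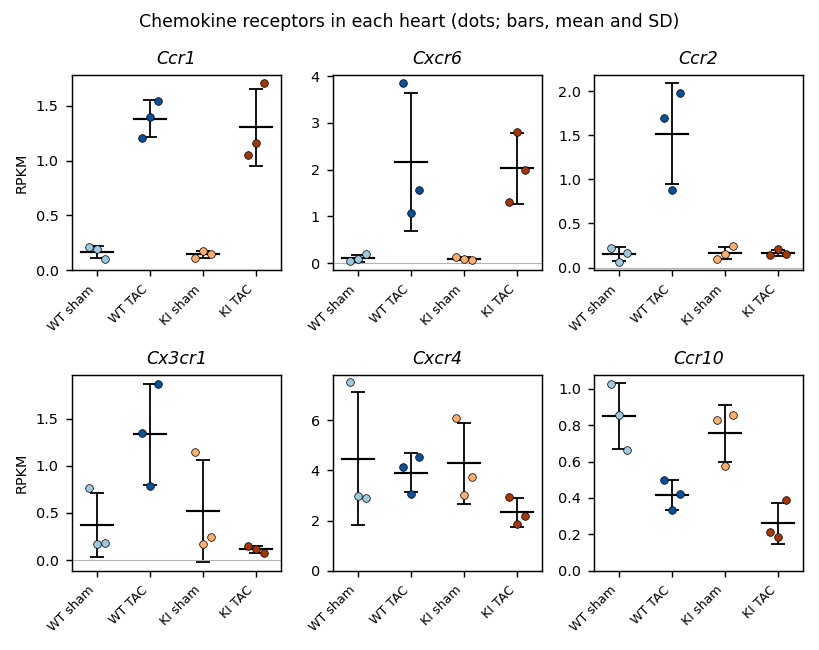
RPKM of 6 chemokine receptors in each heart (dots, 3 per group), with the mean and SD of each group as bars. Ccr1 and Cxcr6 are higher in both TAC groups than in sham, Ccr2 is highest in the 3 WT TAC hearts, and Cx3cr1 is lowest in the 3 KI TAC hearts.

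Il1b, Il1rn and Il1r1 of the IL-1 family rose in both genotypes, the first 2 from very low levels. Il1b, the secreted agonist, was at 0.0816, 0.0443 and 0 RPKM in WT sham (5, 2 and 0 reads) and 0.612, 0.779 and 0.221 RPKM in WT TAC hearts (0.54 ± 0.16, adjusted p = 0.0394). In KI hearts it was at 0.107, 0.0521 and 0.0162 RPKM in sham (5, 3 and 1 reads) and 0.917, 0.579 and 0.183 RPKM in TAC hearts (0.53 ± 0.16, adjusted p = 0.0273). The TAC values of the 2 genotypes overlapped. Il1rn, the secreted antagonist that occupies the same receptor, was nearly absent from sham hearts, with 2, 1 and 0 reads in WT and 1, 0 and 1 reads in KI. After TAC it was at 0.520, 0.622 and 0.367 RPKM in WT (0.58 ± 0.08, adjusted p = 0.000884) and 0.394, 0.234 and 0.155 RPKM in KI hearts (0.32 ± 0.08, adjusted p = 0.0120). Il1r1, the signaling receptor, was at 2.37, 2.19 and 1.99 RPKM in WT sham and 5.15, 4.95 and 6.18 RPKM in WT TAC hearts (1.01 ± 0.18, adjusted p = 0.00375). Its KI values were 3.20, 1.77 and 2.25 RPKM and 5.24, 5.57 and 4.07 RPKM (0.82 ± 0.18, adjusted p = 0.00598). Agonist, antagonist and receptor thus passed in the same direction in both genotypes.

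Other genes of the IL-1 group did not pass. Il1rap, the accessory chain, was at 0.288 to 0.706 RPKM over the 12 hearts, and Il33 at 0.227 to 2.44 RPKM with an adjusted p of 0.375 in WT and 0.108 in KI. Il1rl1, the receptor of IL-33, did not exceed 0.340 RPKM in any heart. Il1rl2, the receptor of the IL-36 cytokines, was at 0.403 to 1.64 RPKM, and its TAC hearts lay above the sham hearts in both genotypes without passing (adjusted p = 0.0905 and 0.183). Il18bp, which binds and blocks IL-18, was at 2.19, 2.25 and 2.06 RPKM in WT sham and 4.41, 3.26 and 4.39 RPKM in WT TAC hearts and narrowly missed the threshold (0.66 ± 0.21, adjusted p = 0.0634). The calls of Il1b depended on single mice. Its WT call was lost with median-ratio scaling, with quantile normalization, without the variance trend and without any of 8 mice (WT sham mice 1, 2 and 3, WT TAC mice 7 and 9, KI sham mice 2 and 3 and KI TAC mouse 6; highest adjusted p 0.128). Its KI call was lost without the variance trend and when KI sham mouse 2 or 3 or KI TAC mouse 5 or 6 was left out (highest adjusted p 0.111), and that of Il1rn in KI without the variance trend (0.0547).

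Il4ra rose the most of the interleukin receptors. It is the chain that the receptors of IL-4 and IL-13 share. Its 6 sham hearts lay between 4.26 and 4.997 RPKM. After TAC it was at 15.3, 17.4 and 12.9 RPKM in WT (1.59 ± 0.19, adjusted p = 0.000315) and 27.1, 22.1 and 16.0 RPKM in KI hearts (1.96 ± 0.19, adjusted p = 3.89e-05), ratios of means of 3.51 and 4.60. Il13ra1, which pairs with it, was at 6.02, 6.06 and 7.21 RPKM in WT sham and 13.7, 11.2 and 18.8 RPKM in WT TAC hearts (1.04 ± 0.22, adjusted p = 0.0106). Its KI values of 10.0, 5.41 and 6.57 RPKM in sham and 8.66, 11.2 and 9.84 RPKM in TAC hearts overlapped and did not pass (0.42 ± 0.22, adjusted p = 0.193). Il17ra, the common chain of the IL-17 receptors, rose from a mean of 0.675 ± 0.0605 RPKM (SD, n = 3) to 1.75 ± 0.329 in WT (0.71 ± 0.13, adjusted p = 0.00411) and from 0.522 ± 0.0566 to 2.08 ± 0.411 in KI hearts (1.01 ± 0.13, adjusted p = 0.000254). Its partner Il17rc was lower in each KI TAC than in each WT TAC heart without passing (-0.55 ± 0.17, adjusted p = 0.0526), and Il17rd and Il17re passed in no comparison. Il20rb, a chain of the receptors of IL-19, IL-20 and IL-24, was at 0.263, 0.221 and 0.293 RPKM in KI sham and 0.675, 0.886 and 1.38 RPKM in KI TAC hearts (0.64 ± 0.12, adjusted p = 0.00241). It stood at 0.363, 0.221 and 0.350 RPKM in WT sham and 0.370, 0.594 and 0.355 RPKM in WT TAC hearts, and KI TAC exceeded WT TAC (0.45 ± 0.12, adjusted p = 0.0322). The latter call was lost in a fit of 2 groups, without the variance trend, and without WT TAC mouse 7, WT TAC mouse 10, KI sham mouse 3, KI TAC mouse 6 or KI TAC mouse 7 (highest adjusted p 0.132).

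Il15 fell in WT, and Il17d, Il10rb and Il11ra1 fell in KI. Il15, which sustains NK cells and memory T cells, was at 6.53, 7.93 and 6.90 RPKM in WT sham and 3.11, 0.373 and 3.62 RPKM in WT TAC hearts (-1.45 ± 0.36, adjusted p = 0.0223). The value of WT TAC mouse 9 was the lowest of all 12 hearts, at 25 reads. In KI hearts Il15 was at 4.89, 7.09 and 7.15 RPKM in sham and 3.08, 4.92 and 2.65 RPKM in TAC hearts and did not pass (-0.71 ± 0.36, adjusted p = 0.175). The WT call was lost in a fit of 2 groups and without any 1 of the WT sham mice (highest adjusted p 0.0764). Il17d, the most abundant interleukin of the table, was at 28.2, 47.6 and 27.7 RPKM in KI sham and 15.4, 10.5 and 16.6 RPKM in KI TAC hearts (-1.21 ± 0.32, adjusted p = 0.0189). In WT it was at 41.6, 35.4 and 23.7 RPKM and 36.1, 22.5 and 14.03 RPKM, which overlapped (-0.52 ± 0.32, adjusted p = 0.329). Il10rb, the most abundant interleukin receptor in sham hearts and a chain shared by the IL-10, IL-22 and IL-28 receptors, fell in KI from 13.3, 18.4 and 17.4 RPKM to 8.81, 10.9 and 6.79 RPKM (-0.83 ± 0.25, adjusted p = 0.0289). Il11ra1, the receptor of the profibrotic cytokine IL-11, had KI means of 6.23 ± 0.949 RPKM in sham and 3.82 ± 0.234 RPKM in TAC hearts (-0.58 ± 0.18, adjusted p = 0.0328). The calls of Il10rb and Il11ra1 were lost with median-ratio scaling, and that of Il11ra1 also in a fit of 2 groups. Without KI sham mouse 2, KI sham mouse 3 or KI TAC mouse 5 both were lost, Il10rb also without KI TAC mouse 7 and Il11ra1 without KI TAC mouse 6 (highest adjusted p 0.0973 and 0.103). That of Il17d was lost when KI sham mouse 2 or KI TAC mouse 6 was left out (0.0752). Reads on Il11ra1 could be split with near-identical copies of the gene.

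Il2ra, the high-affinity chain of the IL-2 receptor, was low throughout and did not overlap between TAC and sham hearts. It was at 0.343, 0.407 and 0.387 RPKM in WT sham, 0.150, 0.0769 and 0.201 in WT TAC, 0.372, 0.389 and 0.361 in KI sham and 0.121, 0.133 and 0.133 in KI TAC hearts, on 13 to 67 reads per heart (-0.27 ± 0.06, adjusted p = 0.0159 in WT, and -0.28 ± 0.06, adjusted p = 0.00717 in KI). Both calls were lost without the variance trend. In WT it was also lost in a fit of 2 groups and without WT sham mouse 2 or 3 or WT TAC mouse 7 or 9 (highest adjusted p 0.0849 in WT and 0.0509 in KI). Il2rg, Il3ra, Il10ra, Il15ra and Il27ra, and the ligands Il16 and Il34, passed in no comparison, with group means from 0.506 RPKM for Il16 to 7.26 RPKM for Il15ra. For Il2rg 30.5% of the exon bases, and for Il10rb 14.9%, are shared on the same strand with an overlapping gene model, whose reads could not be told apart.

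All 5 genes of the colony-stimulating factor group rose in WT and 4 of them in KI. Csf1, the growth factor of macrophages, was at 22.5, 19.3 and 18.3 RPKM in WT sham and 42.1, 36.4 and 28.1 RPKM in WT TAC hearts (0.78 ± 0.18, adjusted p = 0.0168). In KI it was at 21.8, 16.4 and 17.4 RPKM and 31.1, 32.1 and 26.7 RPKM (0.67 ± 0.18, adjusted p = 0.0209). Csf2ra, the alpha chain of the GM-CSF receptor and the most abundant of the group, was at 42.0, 32.0 and 24.7 RPKM in WT sham and 93.4, 78.9 and 60.7 RPKM in WT TAC hearts (1.22 ± 0.28, adjusted p = 0.0151). The KI sham values, 50.0, 37.8 and 32.7 RPKM, overlapped the KI TAC values, 64.5, 32.5 and 59.7 RPKM (0.33 ± 0.28, adjusted p = 0.420). The beta chains were far lower and rose in both genotypes. Csf2rb, which GM-CSF, IL-3 and IL-5 share, was at 0.351, 0.256 and 0.298 RPKM in WT sham, 1.77, 1.54 and 1.45 in WT TAC, 0.382, 0.228 and 0.237 in KI sham and 1.02, 0.980 and 1.16 in KI TAC hearts (0.99 ± 0.09, adjusted p = 8.23e-05 in WT, and 0.68 ± 0.09, adjusted p = 0.000341 in KI). Csf2rb2, the mouse chain specific to IL-3, rose to 2.16, 1.65 and 2.03 RPKM in WT TAC (1.27 ± 0.10, adjusted p = 4.45e-05) and 1.67, 1.74 and 1.61 RPKM in KI TAC hearts (1.08 ± 0.10, adjusted p = 3.89e-05) from at most 0.406 RPKM in sham. These 2 genes are close copies, between which reads could be split. Csf3r, the receptor of G-CSF on neutrophils, had means of 0.412 ± 0.0614 RPKM (SD, n = 3) in WT sham, 1.58 ± 0.434 in WT TAC, 0.299 ± 0.128 in KI sham and 1.08 ± 0.715 in KI TAC hearts (0.86 ± 0.19, adjusted p = 0.0137 in WT, and 0.63 ± 0.19, adjusted p = 0.0336 in KI).

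The calls of Csf2rb and Csf2rb2 with TAC held under every alternative in both genotypes. Csf1 and Csf2ra lost the WT call without WT sham mouse 2, WT sham mouse 3 or WT TAC mouse 7 (highest adjusted p 0.0883 and 0.0704), and Csf3r without WT sham mouse 3 (0.0531). In KI, Csf1 lost it when KI sham mouse 2 or 3 or KI TAC mouse 5 or 6 was left out (0.0822), and Csf3r without the variance trend, any KI sham mouse or KI TAC mouse 5 or 6 (0.114). Csf2rb was lower in the KI TAC than in the WT TAC hearts (-0.34 ± 0.09, adjusted p = 0.0368), a call that only 6 of 19 alternatives kept. It was lost under each change of filter, pseudocount, scaling, samples fitted or variance trend, and without WT sham mouse 2 or 3, WT TAC mouse 7, KI sham mouse 3 or KI TAC mouse 5 or 6 (highest adjusted p 0.238).

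Tnfrsf12a (Fn14), the receptor of the cytokine TWEAK, rose the most of the members in the TNF receptor superfamily and was the most abundant of them after TAC. It was at 24.9, 10.4 and 13.7 RPKM in WT sham and 110.0, 136 and 59.1 RPKM in WT TAC hearts (2.57 ± 0.35, adjusted p = 0.000758). In KI it went from 18.9, 18.01 and 12.8 RPKM to 327, 220.2 and 180.5 RPKM (3.77 ± 0.35, adjusted p = 2.99e-05), a ratio of means of 14.6 against 6.22 in WT. Each KI TAC heart lay above each WT TAC heart (1.28 ± 0.35, adjusted p = 0.0358), while the test of the difference between the responses did not pass (adjusted p = 0.289). That call between the TAC groups was lost with quantile normalization, in a fit of 2 groups, and without WT sham mouse 3, WT TAC mouse 7, WT TAC mouse 10, KI TAC mouse 5 or KI TAC mouse 6 (highest adjusted p 0.110). Its ligand Tnfsf12 (TWEAK) was at 2.22 to 5.38 RPKM over all hearts and passed in no comparison (adjusted p = 0.452 in WT and 0.131 in KI). Of its exon bases 48.2% belong also to the readthrough gene Tnfsfm13, so their reads could not be told apart.

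Both receptors of TNF rose in WT, and Tnfrsf1a also passed in KI. Tnfrsf1a, the widely expressed receptor with a death domain, was at 21.5, 13.1 and 13.96 RPKM in WT sham and 33.4, 30.7 and 27.0 RPKM in WT TAC hearts (0.90 ± 0.21, adjusted p = 0.0180). In KI it was at 16.5, 15.8 and 12.2 RPKM and 32.2, 30.9 and 44.7 RPKM (1.21 ± 0.21, adjusted p = 0.00191). Tnfrsf1b, the receptor of leukocytes and endothelium, was at 3.27, 3.19 and 3.06 RPKM in WT sham and 6.61, 4.79 and 7.06 RPKM in WT TAC hearts (0.76 ± 0.17, adjusted p = 0.0122), and in KI at 4.10, 3.07 and 3.26 RPKM and 4.12, 3.35 and 4.39 RPKM (0.15 ± 0.17, adjusted p = 0.562). The WT TAC hearts lay above the other 9 for Tnfrsf1b, and the comparison with KI TAC did not pass (adjusted p = 0.0634). Tnfrsf11a (RANK) passed in WT (0.48 ± 0.12, adjusted p = 0.0255) and Tnfrsf10b, the TRAIL receptor, in KI (0.39 ± 0.11, adjusted p = 0.0280). Without WT sham mouse 3 or WT TAC mouse 7 the WT calls of Tnfrsf1a and Tnfrsf1b were lost, and that of Tnfrsf1a also without WT sham mouse 2 (highest adjusted p 0.0833 and 0.0587). That of Tnfrsf11a was lost in a fit of 2 groups, without the variance trend, and without any WT sham mouse or WT TAC mouse 7 or 10 (0.101). Tnfrsf10b lost its call without the variance trend, or when KI sham mouse 2 or 3 or KI TAC mouse 5 or 6 was left out (0.0957).

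Tnfrsf25, Tnfrsf19 and Tnfrsf21 fell in KI, and 2 of these 3 with median-ratio scaling. Tnfrsf25 (DR3), the receptor of TL1A, fell in both genotypes, from 1.38, 1.34 and 1.80 RPKM to 0.820, 0.579 and 0.521 RPKM in WT (-0.61 ± 0.12, adjusted p = 0.00768) and from 1.51, 2.01 and 1.87 RPKM to 0.710, 0.527 and 0.460 RPKM in KI hearts (-0.84 ± 0.12, adjusted p = 0.000623). Tnfrsf19 and Tnfrsf21 passed as lower in KI (-0.77 ± 0.21, adjusted p = 0.0201 and -0.49 ± 0.15, adjusted p = 0.0365). The call of Tnfrsf21 was lost with median-ratio scaling, quantile normalization and a fit of 2 groups, and without any KI sham mouse, WT sham mouse 2 or 3, WT TAC mouse 7 or KI TAC mouse 6 or 7 (highest adjusted p 0.200), and that of Tnfrsf19 when KI sham mouse 1 or 3 or KI TAC mouse 6 or 7 was left out (0.0754). Among the 5 ligands of the superfamily, none passed in WT. Tnfsf10 (TRAIL), which triggers apoptosis through death receptors, was the only one to pass in KI. It was at 3.20, 2.36 and 2.34 RPKM in WT sham, 2.44, 1.54 and 2.89 in WT TAC, 2.93, 2.01 and 2.69 in KI sham and 0.539, 0.707 and 1.42 in KI TAC hearts. The KI TAC hearts were the 3 lowest, below KI sham (-0.92 ± 0.20, adjusted p = 0.00665) and WT TAC (-0.80 ± 0.20, adjusted p = 0.0292). The latter call was lost in a fit of 2 groups and without WT TAC mouse 7, WT TAC mouse 10, KI TAC mouse 5 or KI TAC mouse 6 (highest adjusted p 0.118). Tnfsf9 (4-1BB ligand), Tnfsf13b (BAFF), Tnfsfm13, Tnfrsf14 and Tnfrsf18, and the decoy receptors Tnfrsf22 and Tnfrsf23, passed in no comparison.

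**Figure D5:**
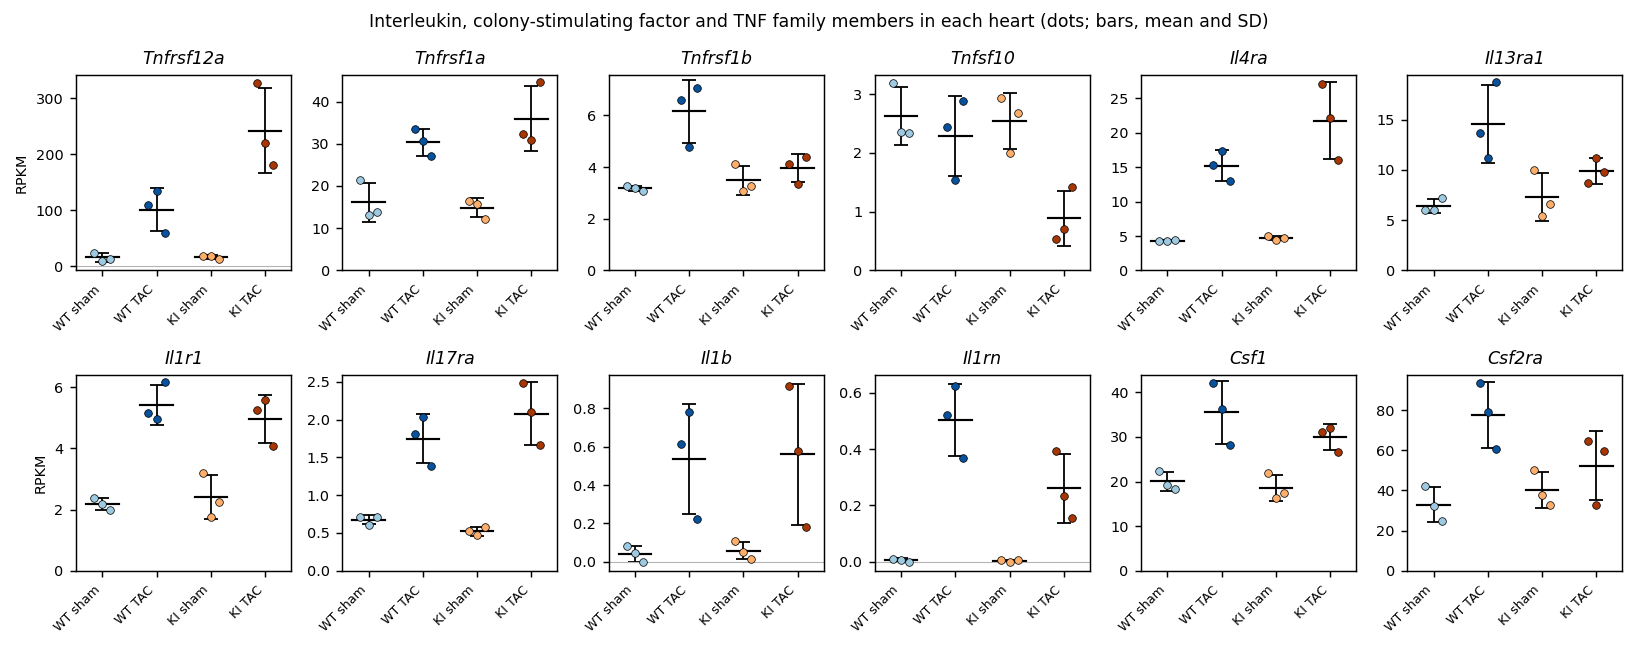
RPKM of 12 members of the interleukin, colony-stimulating factor and TNF families in each heart (dots, 3 per group), with the mean and SD of each group as bars. Tnfrsf12a and Il4ra are higher in all TAC than in all sham hearts, Tnfrsf1b is highest in the 3 WT TAC hearts, and Tnfsf10 is lowest in the 3 KI TAC hearts.

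Between KI TAC and WT TAC hearts 8 of the 71 members passed (11.3%), a share close to the 9.62% of all genes. Tnfrsf12a, Cxcl1 and Il20rb were higher (2.36% of all genes) and 5 were lower (7.26%), among them Ccr2, Cx3cr1, Tnfsf10 and Csf2rb. Of the 7 chemokine receptors 3 were among them, of the 15 chemokine ligands 1 and of the 6 interleukin ligands none. Without overlap were 20 members (28.2%, against 29.4% of all genes). The count was 5 of the 52 members left by a filter at 1 RPKM, which removes Ccr2 and Il20rb, 2 in a fit of the 2 groups alone, 1 without KI TAC mouse 6, 2 without WT TAC mouse 7, and 12 when WT TAC mouse 9 was left out. The count of all genes moved likewise, from 1304 to 115 in the fit of the 2 groups, 183 without KI TAC mouse 6, 160 without WT TAC mouse 7 and 1986 without WT TAC mouse 9. Ccr2 was the only member called under every alternative that tested it. The count in WT TAC against WT sham was 19 without WT TAC mouse 7, without WT sham mouse 2 or without WT sham mouse 3, while that in KI stayed between 23 and 33. Of all genes 659, 706 and 725 passed in these WT fits, in the same order, against 1505 in the main fit. The count of all genes in KI stayed between 1561 and 3453.

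No member passed between KI sham and WT sham hearts by limma (0.0221% of all genes, which is 3 genes) and 0 had an unadjusted p below 0.05 by limma. The smallest unadjusted p belonged to Il17re (-0.20 ± 0.13), Cxcl14 (-0.45 ± 0.32) and Tnfrsf25 (0.16 ± 0.12), whose adjusted p rounded to 1. Il17ra was the only member whose 3 KI sham hearts did not overlap the 3 WT sham hearts (1.41% of the members, against 3.75% of all genes), and it was lower in KI sham.

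No member passed the interaction of genotype and surgery by limma (0.0% of all genes), and 13 members had an unadjusted p below 0.05, as did 1995 genes. Ccr2 had the smallest p, its KI response minus its WT response being -1.10 ± 0.19 on the log2 scale (adjusted p = 0.102, limma), followed by Cx3cr1 (-1.16 ± 0.32, adjusted p = 0.160) and Cxcl1 (1.35 ± 0.39, adjusted p = 0.175). For Ccr2 the adjusted p ranged from 0.000991 to 0.272 over the alternatives, and it passed when either KI TAC mouse 7 or WT TAC mouse 9 was left out. Cx3cr1 passed without WT TAC mouse 9 as well (adjusted p = 0.0443), and Cxcl1 passed under none (0.0594 to 0.371). In a design of 3 mice against 3, an exact two-sided permutation test of a single gene cannot give a p below 0.1, so that the tests rest on the spread that limma shares across genes.

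Of a list of 34 shared signaling genes of the IL-1, TNF and cytokine receptors, 32 were tested. In WT 6 rose (Ptpn6, Myd88, Ripk3, Irak4, Traf5 and Nlrp3) and none fell, and in KI 5 rose (Irak3, Myd88, Irak2, Nlrp3 and Ripk1) and 4 fell (among them Stat5a, Tyk2 and Stat5b). Among all genes 6.86% rose in WT, and 7.8% rose and 13.8% fell in KI. The list's median was 0.25 in WT and -0.02 in KI, against 0.04 and -0.10 over all genes. Myd88, the adaptor of the IL-1 receptor, rose from 5.36 to 11.6 RPKM in WT (log2 difference 1.00, adjusted p = 0.00832) and from 5.72 to 11.6 RPKM in KI (0.89, adjusted p = 0.00798). Irak2, a transducer of the same receptor, and Irak3, its inhibitor, were higher in the KI TAC than in the WT TAC hearts (0.79, adjusted p = 0.0253, and 0.71, adjusted p = 0.0242), and Tyk2, Ptpn6 and Stat5b lower. With median-ratio scaling 5 rose and 1 fell in WT, 7 rose and 4 fell in KI, and between the TAC groups 2 were higher and 2 lower in KI.

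Adhesion molecules, which leukocytes use to leave the blood, rose in part in both genotypes. Of 16 tested of 17, Sele, Itgb2, Selp, Icam1, Itgam and Selplg rose in WT, and Sele, Icam1, Selp, Itgb2, Itgam, Esam and Pecam1 rose and Jam2 fell in KI, against 6.86% of all genes that rose in WT, and 7.8% that rose and 13.8% that fell in KI. Selp (P-selectin) went from 0.0912 to 1.25 RPKM in WT (log2 difference 1.03, adjusted p = 0.000315) and from 0.0435 to 1.36 RPKM in KI (1.17, adjusted p = 8.15e-05). Sele (E-selectin) went from 0.394 to 3.14 RPKM in WT (1.54, adjusted p = 0.000381) and from 0.506 to 3.71 RPKM in KI (1.64, adjusted p = 0.000147). The list's median was 0.27 in WT and 0.17 in KI, against 0.04 and -0.10 over all genes. Between the TAC groups Esam was higher in KI (0.76, adjusted p = 0.0263), and Selplg (-0.73, adjusted p = 0.0219) and Itgal (-0.52, adjusted p = 0.0294) were lower. With median-ratio scaling 5 rose in WT, 7 rose and none fell in KI, and between the TAC groups 2 were higher and 1 lower in KI.

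Of a list of further cytokine and receptor genes outside the name rule, 21 of 34 were tested. Ngfr rose and Ccrl2 and Ackr3 fell in WT, and Ackr2 rose and Ifngr2, Ccrl2 and Ackr3 fell in KI, and with median-ratio scaling 3 rose and 2 fell in KI. These 3 of 21 in WT and 4 of 21 in KI are near the shares of all genes that passed, 11.1% and 21.6%. Ackr3, a scavenger receptor of Cxcl12, fell from 31.5 to 17.1 RPKM in WT (log2 difference -0.85, adjusted p = 0.00832) and from 33.3 to 21.8 RPKM in KI (-0.58, adjusted p = 0.0291). Ngfr, a receptor of the TNF receptor superfamily, was lower in the KI TAC than in the WT TAC hearts (-1.10, adjusted p = 0.0135), as was Ifnar1 (-0.60, adjusted p = 0.0446). These were the 2 calls of the list between the TAC groups, and with median-ratio scaling 3 were higher and 1 lower.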

How the data were processed

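Poly(A)+ RNA of 12 hearts was read as single 75-cycle reads on a NextSeq 500, from strand-specific libraries. The authors deposited RPKM values for 13552 genes. The submitters' processing notes name Trimmomatic 0.39, HISAT2 2.2.1, HTSeq 0.6.1, edgeR 3.18.1 (used by the authors), limma 3.32.10 and R 4.1.1, and the build GRCm38. Filters made before deposit are not given in the sources used here, and the table may hold only a subset of genes. Whole reads were recovered from the RPKM values and GENCODE M21 exon lengths (96.3 to 98.0% of low values whole within 0.02) and serve only to give the depth and the reads behind low values.

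All genes and all 12 mice were fitted with limma 3.58.1 (4 groups, eBayes with trend, R 4.3.3) on log2(RPKM + 1), with Benjamini-Hochberg adjustment over all genes. No filter on low values was applied, since it would keep members through the group where they are high. Of the members, 52 reached 1 RPKM in at least 3 mice, 15 of them in at most 2 groups. Every mouse is a separate sample per the labels. Alternatives were a filter, other pseudocounts and scalings, fits of 2 groups, no variance trend, an adjusted p of 0.10, a replicate block and leaving out each mouse.

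The members, lists and tests were chosen with earlier results of these data known. Named were the up to 12 members with the largest rise and 8 with the largest fall past the threshold, those with the smallest p in the sham comparison and the interaction, fixed ligand and receptor sets, and the highest member of each class. Members outside this rule are named after their values were seen. The model was run on simulated data that held changes in WT TAC hearts alone, with no shift of cell types or library scale between groups. It was therefore not tested under such shifts, and the outcome is not reported here. One member and a gene of the signaling list are counted and not reported here. Figures were drawn with matplotlib 3.10.9.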

Additional observations from a re-analysis of the deposited data

Results flagged for a closer look

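The hearts of the 2 genotypes lay on opposite sides of sham for Cx3cr1, the receptor of Cx3cl1. Every WT TAC heart lay above every WT sham heart and every KI TAC heart lay below every KI sham heart, where the difference passed in WT (0.77, adjusted p = 0.0441) and not in KI (-0.39, adjusted p = 0.229). Both gaps were narrow. In KI, TAC mouse 5 was at 0.154 RPKM (21 reads) and sham mouse 2 at 0.1765 RPKM (24 reads). In WT, TAC mouse 9 was at 0.787 RPKM (105 reads) and sham mouse 1 at 0.767 RPKM (111 reads). Full separation in either direction was seen for 33.9% of all genes in WT and 38.9% in KI. The KI response minus the WT response was -1.16 on the log2 scale, and its limma test did not pass (adjusted p = 0.160, 0.0443 to 0.380 over the alternatives). It passed without WT TAC mouse 9. Groups of 3 mice were too small for a search for single outlying hearts.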

How the results depend on the processing

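Over all alternatives reported here, where each tested the member, 17 of 30 calls held in WT, 20 of 32 in KI and 1 of 8 between KI TAC and WT TAC, and all kept their sign. Between KI TAC and WT TAC the count of members was 5 with the filter and 2 in a fit of 2 groups. Of all genes 1242 of 11240 passed with the filter and 115 of 13552 in the fit of 2 groups. Leaving out single mice gave counts of 19 to 31 in WT, 23 to 33 in KI, 1 to 12 between the TAC groups, 0 to 0 between the sham groups and 0 to 3 for the interaction (1 of 71, with 135 of all 13552 genes, when KI TAC mouse 7 and 3, with 311 genes, when WT TAC mouse 9 was left out). In the same fits 659 to 1718 of all genes passed in WT, 1561 to 3453 in KI and 160 to 1986 between the TAC groups. A planned test of whole reads with limma-voom was run, and its outcome was known when it was left out, since the deposited unit is RPKM and not counts and its scaling factors need edgeR, which no reported value uses. In it Cx3cr1 and Ccr10 in WT, Ccl27a, Il10rb, Il11ra1 and Tnfrsf21 in KI and Csf2rb between the TAC groups lost their calls, and Il18bp in WT and Il13ra1 and Il1rl2 in KI gained one. Where a setting changed a call, the cause was not tested.

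Among values that did not pass, the sign turned for Cx3cl1 in KI (0.10 with median-ratio scaling and 0.0606 with quantile normalization), Il1r1 between the TAC groups (0.0565 and 0.0065 in the same order), Il1rap in KI (0.0159) and Il1rl1 in WT (-0.0216) with quantile normalization, and Il1b between the TAC groups with a pseudocount of 0.1 (-0.0127). Leaving out single mice gave log2 differences of -0.0333 to 0.0521 for Ccr2 in KI, -0.13 to 0.15 for Cx3cl1 in KI, -0.0518 to 0.35 for Cxcl12 in WT, -0.26 to 0.30 for Cxcr4 in WT, -0.44 to 0.0393 for Il10rb between the TAC groups, -0.15 to 0.20 for Il1b between the TAC groups, -0.18 to 0.0176 for Il1rap in KI and -0.0474 to 0.0775 for Il1rl1 in WT.

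The sham groups share mouse numbers 1, 2 and 3. Deviations of same-numbered mice correlated at -0.228, -0.301 and 0.426, and those of WT mouse 1 and KI mouse 2 at 0.432. No pairing by number was seen. Deviations from a mean of 3 depend on each other, so that this check cannot exclude that mice were handled together. With the replicate block the count of members called between KI sham and WT sham was 0, and not every mouse correlated best with its own number. No paired analysis was possible because the other groups compared share fewer than 2 numbers.

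Depth limits the lowest members: Il1b had 0 to 53 reads per heart and Il1rn 0 to 102, and values per gene do not show which cells hold the RNA.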

Other observations

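Further marker lists give the cell types of the heart beside these values. Of 8 endothelial markers Pecam1 rose in KI and none passed in WT. Of 8 smooth muscle and pericyte markers Cspg4 rose and Abcc9 fell in WT, and Abcc9 fell in KI. With median-ratio scaling neither fall passed, 1 smooth muscle and pericyte marker and 2 endothelial markers rose in KI, and 1 endothelial marker was higher in the KI TAC than in the WT TAC hearts. Of 8 cardiomyocyte markers Myh6 fell in WT, and Tnni3 was higher in the KI TAC than in the WT TAC hearts. With median-ratio scaling 4 of the 8 were higher there. The median log2 difference of this list was -0.72 in WT, 0.06 in KI and 0.80 for KI TAC against WT TAC, and that of the fibroblast list 0.52, -0.36 and -0.71, against 0.04, -0.10 and -0.12 over all genes. Their part in the values of the members was not tested. None of 8 fibroblast and 6 red blood cell markers passed by limma without that scaling, and with it 1 fibroblast marker rose in WT and 2 red blood cell markers were higher in the KI TAC than in the WT TAC hearts. Of 2 B cell markers analysed Ighm fell in KI and Blk was lower in the KI TAC than in the WT TAC hearts. Of single markers analysed, Hdc of mast cells rose in KI and Cd1d1, from a thymus list, fell in WT.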
